A study of Mus musculus with 8 samples.

Results

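The 10 genes described here encode the enzymes and carrier that take long-chain fatty acids into mitochondria and shorten them, together with the kinase that turns mitochondria away from pyruvate. They were taken by gene symbol (*Cpt1a*, *Cpt2*, *Slc25a20*, *Acadvl*, *Acadl*, *Acadm*, *Hadha*, *Hadhb*, *Acaa2* and *Pdk4*), and 21 of the 45281 probes on the array carried one of these symbols. The 21 probes covered 9 of the 10 genes, among 30789 gene symbols on the array. 0 probes named *Hadha* by symbol, synonym or gene identifier, so the expression of this gene was not analysed here. 15 probes for 7 genes were detected on all 8 arrays and were tested, among 17122 tested probes for 12423 symbols. The remaining 6 probes, including both probes of *Cpt1a* and both of *Pdk4*, were too dim to test.

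The samples were thioglycollate-elicited peritoneal macrophages, cells drawn into the mouse abdominal cavity by an irritant broth, from C57/BL6 mice aged 8 weeks. 4 samples were kept for 24 h with 120 μg per ml of acetylated LDL (Ac-LDL), a chemically modified lipoprotein that macrophages take up through scavenger receptors, and 4 were mock-treated for the same time. No genetic change is named for either group, and the study aimed to find genes whose mRNA differs when macrophages load cholesterol. Each group was numbered as biological replicates 1 to 4, and whether a replicate was 1 mouse or a pool is not given in the sources used here. RNA was hybridized to Illumina bead chips, on which each probe's intensity is the mean over many beads. Replicates 1 and 2 of both groups shared slide 1 and replicates 3 and 4 shared slide 2.

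Long-chain fatty acids cross the mitochondrial membranes as carnitine esters. CPT1A makes the ester on the outer membrane, the carrier SLC25A20 exchanges acylcarnitine for carnitine across the inner membrane, and CPT2 returns the acyl group to coenzyme A inside. Each round of β-oxidation then begins with a dehydrogenase chosen by chain length (ACADVL, ACADL or ACADM). Rounds of long chains pass through the hydratase and dehydrogenase of the trifunctional protein (HADHA with HADHB, which carries a thiolase). A round ends with a thiolase, which for many chain lengths is ACAA2. PDK4 phosphorylates and inhibits pyruvate dehydrogenase and so favours fat as the fuel. In macrophages the pathway is known for its activity in alternatively activated cells and for burning fatty acids set free from lipid stores.

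The members stood mostly a little higher in Ac-LDL-treated macrophages, and 0 of the 15 tested probes passed an adjusted P of 0.05. The largest values were those of *Slc25a20*, *Acaa2* and *Hadhb*, at 1.29- to 1.32-fold by the brightest probe of each gene. *Cpt2*, *Acadvl*, *Acadl* and *Acadm* lay within 0.13 of the controls on the log2 scale by the same measure. In limma, over all 17122 tested probes, 0.0409% were called at this threshold, 1 higher and 6 lower. Among the members' probes 7 of 15 had an unadjusted P under 0.05, all higher with Ac-LDL, against 2.73% of all tested probes in that direction and 2.47% in the other. They include every probe of *Acaa2*, a gene that the study picked from the same arrays, so they are not 7 separate observations. By the brightest probe of each gene, 2 of the 7 tested genes had such a P and were higher, against 2.66% of all genes. The lowest adjusted P of a member was 0.316. When the replicate number was blocked, 0 member probes were called against 0.444% of all probes, and when the slide was blocked, 0 against 0.321%.

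A count that does not rest on the variance model ran the same way. On 7 of the 15 probes all 4 Ac-LDL arrays lay above all 4 control arrays, and on 0 probes below, against 2.11% and 1.68% of all tested probes. 14 of the 15 probes had a log2 fold change above 0, against 50.4% of all. These 7 probes come from 3 genes, 4 of them from *Acaa2*, 2 from *Slc25a20* and 1 from *Cpt2*, so they are not 7 separate observations. By the brightest probe of each of the 7 tested genes, 2 genes, *Slc25a20* and *Acaa2*, did not overlap between groups, against 2.12% of all genes. All 7 genes had a value above 0, against 49.8% of all genes, and their median log2 fold change was 0.13 (range 0.03 to 0.40) against a median of -0.000588 for all genes. These counts describe the list and were not tested as a set. They include *Acaa2*, which the study picked from these same arrays. All members, and the related lists below, were chosen with earlier results of these data known. None of the counts set against all probes or genes is therefore independent of these data. With whole-culture RNA, more or less RNA per cell and more or fewer cells that hold it cannot be told apart.

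**Figure D1:**
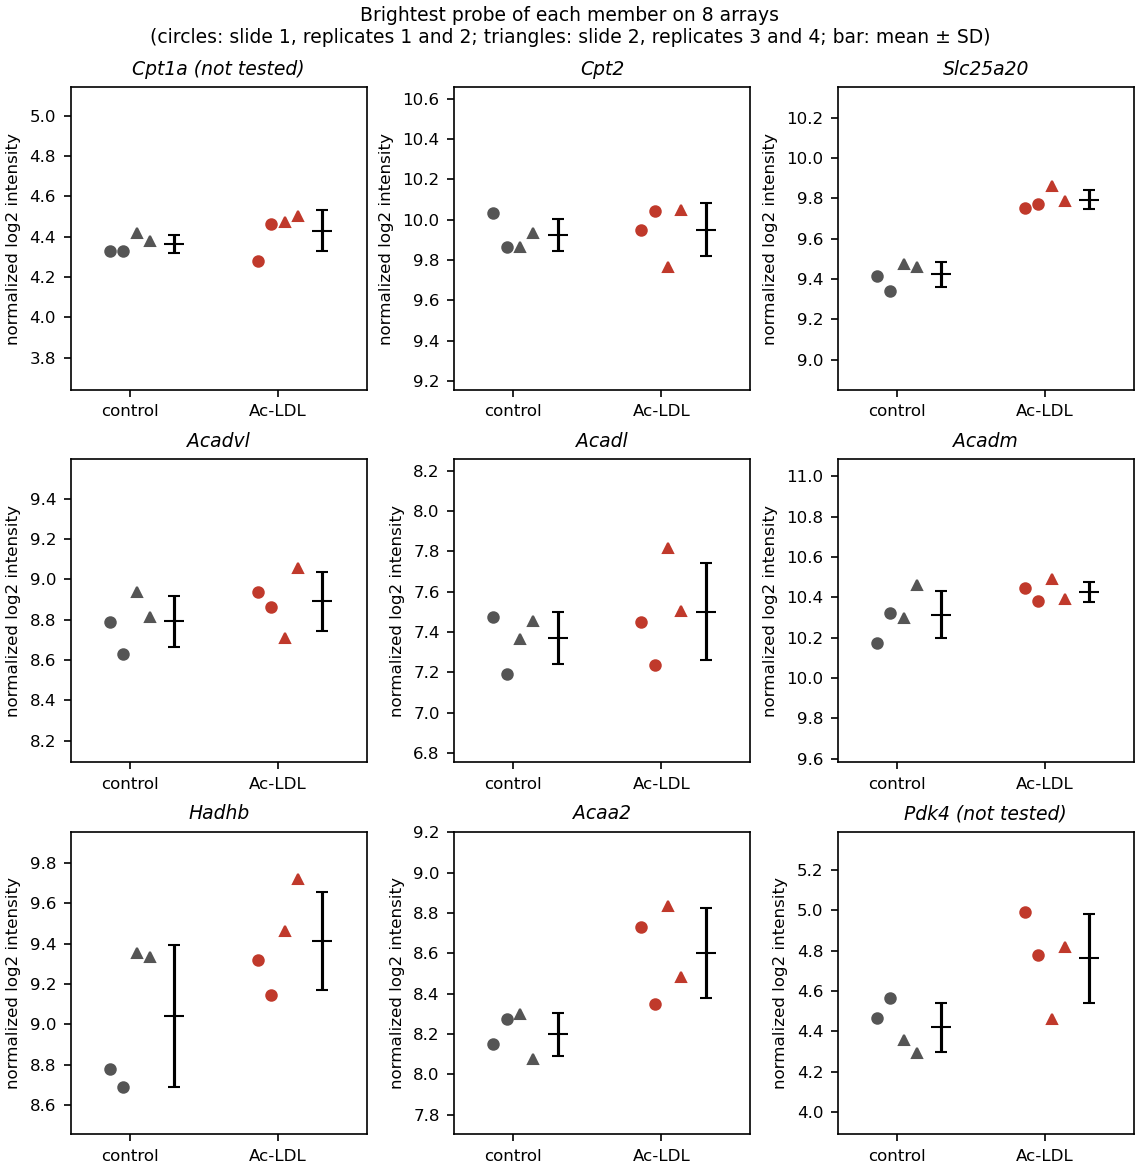
Normalized log2 intensity of the brightest probe of each member on the 8 arrays (4 control, grey; 4 Ac-LDL, red), with circles for slide 1, triangles for slide 2 and bars for the mean ± SD. Every panel spans the same log2 range on its vertical axis. *Slc25a20* and *Acaa2* separate the groups, *Hadhb* differs between slides in the controls, and *Cpt1a* and *Pdk4* were not tested.

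The sequences below are those of 3 probes that lie away from the brightest probe of their gene, for the carrier, CPT2 and ACADVL. They are printed in the direction given in the array's annotation, which places them without naming a genome build, in lower case throughout because no base within them is singled out.
*Slc25a20* ILMN_3061070, chr9:108519634-108519683, plus strand, transcript base 133: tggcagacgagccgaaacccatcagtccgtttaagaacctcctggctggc
*Cpt2* ILMN_2885532, chr4:107576875-107576924, minus strand, transcript base 1957: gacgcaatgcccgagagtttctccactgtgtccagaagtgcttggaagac
*Acadvl* ILMN_2956932, chr11:69826728-69826777, minus strand, transcript base 1855: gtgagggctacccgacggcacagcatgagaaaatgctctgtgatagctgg

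Among the genes of the carnitine shuttle, the carrier *Slc25a20* had the smallest P value of any member. Its brightest probe, ILMN_3138499 at base 1448 of its transcript, read 9.42, 9.34, 9.48 and 9.46 on control arrays 1 to 4 and 9.75, 9.77, 9.86 and 9.79 on Ac-LDL arrays 1 to 4, in normalized log2 intensity. The groups did not overlap, and the gap between them was several times the spread within either. The means were 9.42 ± 0.06 and 9.79 ± 0.05 (SD, n = 4 each). The difference was 0.37 (SE 0.08, 95% interval 0.19 to 0.56), or 1.29-fold, and its limma adjusted P was 0.316 (unadjusted 0.0012). It was 0.39 on slide 1 and 0.36 on slide 2. Blocking on the replicate number gave a limma adjusted P of 0.100, and blocking on the slide gave 0.0757.

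The array's annotation gives the 2 tested *Slc25a20* probes different probe types, A for the brightest and I for the second. They need not read the same set of transcripts, and this was not examined further. The second, ILMN_3061070, at transcript base 133 and with its sequence given above, gave a like value. It read 5.77, 5.92, 5.85 and 5.72 on the control arrays and 6.16, 6.12, 6.46 and 6.12 on the Ac-LDL arrays. All Ac-LDL arrays again lay above all controls, with Ac-LDL array 3 well above the other 3. The log2 difference was 0.40 (SE 0.11), or 1.32-fold, with a limma adjusted P of 0.554. In an exact two-sided permutation test over all 70 assignments of the arrays, each of the 2 probes had P = 0.0286. That is the smallest value this test allows, and every probe whose groups do not overlap has it, so it adds nothing to the separation. It was not adjusted for the number of probes. The exact permutation P of the brightest probe was 0.143 for *Acadm*, 0.2 for *Hadhb*, 0.343 for *Acadvl*, 0.371 for *Acadl* and 0.686 for *Cpt2*. Permuted within replicate numbers, which pair the arrays, the smallest possible P is 0.125, and within slides it is 0.0556. A further *Slc25a20* probe, ILMN_2664821, was detected on 0 of 8 arrays and its group means differed by -0.01.

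*Cpt2*, the enzyme of the inner side of the membrane, gave different values at different places. Its brightest probe, ILMN_2775122 at base 2203, read 10.03, 9.87, 9.86 and 9.94 on the control arrays and 9.95, 10.04, 9.77 and 10.05 on the Ac-LDL arrays. The groups overlapped throughout, with a log2 difference of 0.03 (SE 0.10, limma adjusted P = 0.994). ILMN_2775123, which begins 2 bases further along and shares 48 of its 50 bases with that probe, gave -0.05. The probe upstream, ILMN_2885532, read 8.49, 8.54, 8.32 and 8.48 on the control arrays and 8.67, 8.67, 8.56 and 8.72 on the Ac-LDL arrays. There every Ac-LDL array lay above every control, by 0.20 on average (95% interval -0.00148 to 0.40, limma adjusted P = 0.946). Over all 70 assignments the exact two-sided permutation P was 0.0286, as for any probe without overlap, and within replicate numbers it cannot be below 0.125.

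*Cpt1a*, the outer-membrane enzyme at the entry of the pathway, was not detected. Probe ILMN_1213487 read 4.33, 4.33, 4.42 and 4.38 on the control arrays and 4.28, 4.46, 4.48 and 4.50 on the Ac-LDL arrays, and ILMN_2591776 read 4.43, 4.32, 4.26 and 4.34 against 4.45, 4.39, 4.38 and 4.50. These values lie in the range of the negative controls, with detection P values from 0.170 to 0.768 for the first probe and from 0.177 to 0.810 for the second. Both probes were not well above background on any array, and no fold change is given.

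The acyl-CoA dehydrogenases, which take the first oxidative step, differed little between groups. *Acadvl*, for the longest chains, read 8.79, 8.63, 8.94 and 8.81 on the control arrays and 8.93, 8.86, 8.71 and 9.06 on the Ac-LDL arrays by its brightest probe, ILMN_2775586. The groups overlapped, with Ac-LDL array 3 below 3 of the controls, and the log2 difference was 0.10 (limma adjusted P = 0.986). The *Acadvl* probe upstream, ILMN_2956932, read 8.65, 8.45, 8.69 and 8.73 against 8.72, 8.87, 8.89 and 8.94. It differed by 0.22 (95% interval 0.00325 to 0.44, limma adjusted P = 0.946), and its groups overlapped only in that Ac-LDL array 1 lay below control array 4.

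*Acadl*, for long chains, read 7.47, 7.19, 7.36 and 7.46 on the control arrays and 7.45, 7.24, 7.82 and 7.50 on the Ac-LDL arrays by ILMN_2689473. Ac-LDL array 3 stood clear of the controls and array 4 barely so, and the other Ac-LDL arrays lay among them. The log2 difference was 0.13 (limma adjusted P = 0.986), and it was 0.0250 without Ac-LDL array 3. Its probe ILMN_2783519, at transcript base 1732, read 6.95, 7.11, 7.22 and 7.14 against 7.34, 7.39, 7.21 and 7.29. The difference was 0.20, with 0.34 on slide 1 and 0.07 on slide 2. A further probe, ILMN_2735084, was detected on 0 of 8 arrays. *Acadm*, for medium chains, has 1 probe, which read 10.18, 10.32, 10.30 and 10.46 against 10.44, 10.38, 10.49 and 10.39. Its highest control lay above 3 of the 4 Ac-LDL arrays, and the log2 difference was 0.11 (95% interval -0.09 to 0.32, limma adjusted P = 0.973).

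The trifunctional protein was read through its β subunit alone. *Hadhb* read 8.78, 8.69, 9.36 and 9.34 on the control arrays and 9.32, 9.15, 9.46 and 9.72 on the Ac-LDL arrays. The groups overlapped, because the controls of slide 2 lay above both Ac-LDL arrays of slide 1. Within each replicate number the Ac-LDL array was the higher, in 4 of 4 pairs. The means were 9.04 ± 0.35 and 9.41 ± 0.24 (SD, n = 4 each), a log2 difference of 0.37 (SE 0.18, 95% interval -0.03 to 0.78) or 1.29-fold, with a limma adjusted P of 0.949. Arrays of slide 2 read 0.48 higher than those of slide 1, which is more than the difference between the groups. The difference was 0.50 within slide 1 and 0.25 within slide 2, and limma gave an adjusted P of 0.150 when blocked on the replicate number and 0.165 when blocked on the slide.

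**Figure D2:**
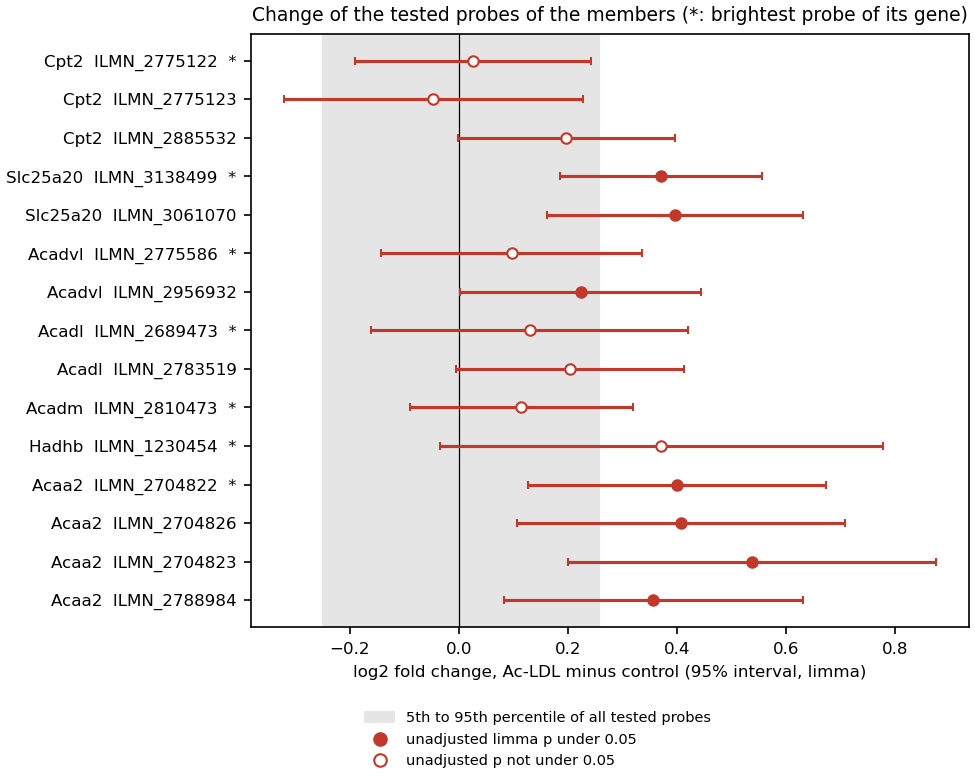
Log2 fold change of each tested probe of the members, Ac-LDL minus control, with its 95% limma interval (n = 4 arrays per group); filled points have an unadjusted P under 0.05 and the grey band holds the 5th to 95th percentile of all tested probes (-0.25 to 0.26). The *Slc25a20*, *Hadhb* and *Acaa2* probes lie to the right of the band, and ILMN_2775123 for *Cpt2* is the only point below 0.

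*Acaa2*, a thiolase that closes rounds of β-oxidation, is read by 4 probes, and all 4 separated the groups. The study itself picked this gene from the same arrays, so its direction here is not independent evidence. The brightest probe, ILMN_2704822, read 8.15, 8.27, 8.30 and 8.07 on the control arrays and 8.73, 8.35, 8.83 and 8.48 on the Ac-LDL arrays. The lowest Ac-LDL array, number 2, stood just above the highest control. The means were 8.20 ± 0.11 and 8.60 ± 0.22 (SD, n = 4 each), a log2 difference of 0.40 (SE 0.12, 95% interval 0.13 to 0.67) or 1.32-fold. Its limma adjusted P was 0.762, with 0.33 on slide 1 and 0.47 on slide 2.

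2 further *Acaa2* probes overlap that one and do not add an independent reading. ILMN_2704826 and ILMN_2704823 each share 49 of 50 bases with it, and 48 with each other. ILMN_2704826 read 7.89, 7.91, 7.83 and 7.63 against 8.45, 8.00, 8.45 and 8.00, a log2 difference of 0.41. ILMN_2704823 read 7.64, 7.90, 7.71 and 7.49 against 8.49, 8.04, 8.46 and 7.91, a difference of 0.54 or 1.45-fold. On all 3 overlapping probes Ac-LDL arrays 1 and 3 were high and arrays 2 and 4 were nearer the controls.

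The remaining *Acaa2* probe, ILMN_2788984, begins at transcript base 1219 and ordered the Ac-LDL arrays differently. It read 6.91, 7.08, 7.14 and 7.10 on the control arrays and 7.25, 7.73, 7.27 and 7.42 on the Ac-LDL arrays. Here array 2 was the highest and arrays 1 and 3 the lowest of the treated group, the reverse of the overlapping probes. The log2 difference was 0.36 (1.28-fold, limma adjusted P = 0.822), with 0.50 on slide 1 and 0.22 on slide 2. The bead standard errors of the 4 probes were 2.80% to 8.40% of the signal.

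Averaged over its 4 probes, *Acaa2* read 7.65, 7.79, 7.75 and 7.58 on the control arrays and 8.23, 8.03, 8.25 and 7.95 on the Ac-LDL arrays. The log2 difference of this mean was 0.43 (7.69 ± 0.10 against 8.12 ± 0.15, SD, n = 4 each; exact two-sided permutation P = 0.0286), with 0.41 on slide 1 and 0.44 on slide 2. Permuted within replicate numbers, which pair the arrays, its exact P was 0.125, the smallest that 4 pairs allow. With the overlapping probes counted as 1 location and the other probe as the second, the values were 7.40, 7.55, 7.55 and 7.42 against 7.90, 7.93, 7.92 and 7.77. The difference was then 0.40, with an SD of 0.07 within the treated group, where the locations deviated in opposite directions.

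**Figure D3:**
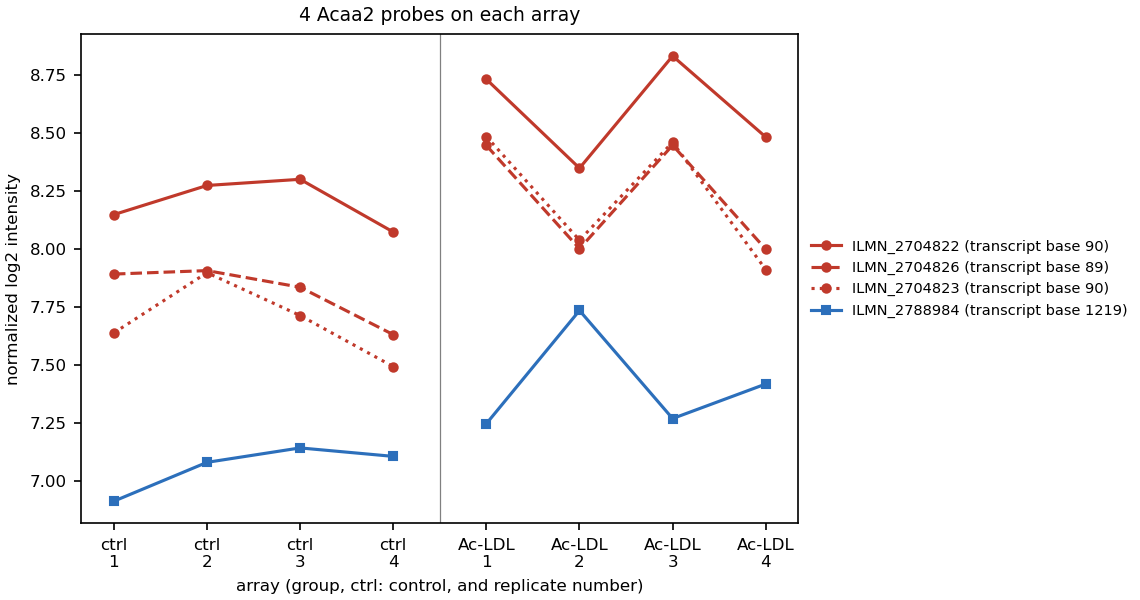
Normalized log2 intensity of the 4 *Acaa2* probes on the 4 control and 4 Ac-LDL arrays, 1 line per probe, in red for the overlapping probes and in blue for ILMN_2788984. Every probe is higher on each Ac-LDL array than on any control array, while the red lines peak on Ac-LDL arrays 1 and 3 and the blue line on array 2. Only the course of a line is to be compared, not its height with that of another probe.

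Whether probes at different places of a gene gave different values was examined for the 5 members with tested probes at more than 1 place, a comparison added after the values were seen. The *Cpt2* probe upstream exceeded the mean of the overlapping pair by 0.21 in log2 fold change (exact two-sided permutation P = 0.0857, 0.429 after Benjamini-Hochberg adjustment over 5 genes). For *Acadvl* the gap was 0.13 (adjusted exact permutation P = 0.643). The *Acaa2* gap was 0.09, that of *Slc25a20* 0.03 and that of *Acadl* -0.07, each with an adjusted exact permutation P of 0.743. No gap passed the threshold.

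*Pdk4*, the kinase that holds pyruvate dehydrogenase inactive, stood at the edge of detection. Probe ILMN_1259322 read 4.47, 4.57, 4.36 and 4.29 on the control arrays and 4.99, 4.78, 4.46 and 4.82 on the Ac-LDL arrays. Its detection P values were 0.213, 0.140, 0.438 and 0.687 in the controls and 0.0214, 0.0609, 0.220 and 0.0438 with Ac-LDL. It was thus detected on 0 of 4 control and 2 of 4 Ac-LDL arrays, and Ac-LDL array 3 lay among the controls. The group means differed by 0.34 on the log2 scale (exact two-sided permutation P = 0.0857), and by 0.14 with an offset of 50 in the background correction. When all probes were tested without the detection filter, its limma adjusted P was 0.880. The mean of the Ac-LDL arrays equalled the lowest level of a detected probe, averaged over the control arrays (4.76 for both), so no lower bound on a fold can be given. The other *Pdk4* probe, ILMN_1216259, was detected on no array and its means differed by 0.02.

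The other genes of mitochondrial fatty acid oxidation showed small values of either sign. Of 26 genes on this list, 22 had a tested probe, 15 of them above 0 against 49.8% of all genes, and their median log2 fold change was 0.10. 0 were called, with a lowest limma adjusted P of 0.854. 4 had an unadjusted P under 0.05 and were higher, against 2.66% of all genes by their brightest probe, and 1 was lower, against 2.55%. *Etfb*, the β subunit of the electron transfer flavoprotein that takes electrons from the acyl-CoA dehydrogenases, and *Etfdh*, the oxidoreductase that passes them to ubiquinone, were among the 4. *Etfb* read 11.23 ± 0.18 in control and 11.52 ± 0.08 in Ac-LDL-treated cells, and *Etfdh* 7.55 ± 0.12 and 7.79 ± 0.10 (SD, n = 4 each). *Etfa*, the α subunit, differed by 0.15 with overlapping groups, and its other 2 probes both gave -0.07.

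*Slc22a5*, the plasma membrane carnitine transporter, differed by 0.21, and its other 2 probes gave 0.03 and 0.20. *Pccb*, a subunit of the carboxylase that handles the last carbons of odd-chain fatty acids, differed by 0.28, and its other probe gave 0.11. The gene with the lower value was *Acot13*, an acyl-CoA thioesterase listed on the array as *Them2*, which read 10.90 ± 0.18 in control and 10.55 ± 0.18 in Ac-LDL-treated cells (SD, n = 4 each). Its log2 difference was -0.35 (limma adjusted P = 0.854), with -0.35 on slide 1 and -0.34 on slide 2.

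Peroxisomes shorten very long and branched fatty acids before they enter mitochondria, and this list had the highest median of the 5 examined beside the members, at 0.18 over 11 tested of 17 genes. 9 of the 11 had values above 0, against 49.8% of all genes, and 0 were called (lowest limma adjusted P = 0.807). 3 had an unadjusted P under 0.05, all higher, against 2.66% of all genes in that direction. *Abcd3*, a transporter of acyl groups into the peroxisome, read 9.51 ± 0.09 in control and 9.79 ± 0.10 in Ac-LDL-treated cells (SD, n = 4 each), and its other tested probes gave -0.00690 to 0.28. Its relative *Abcd2* differed by 0.31, was detected on 7 of 8 arrays and gave 0.15 with an offset of 50 and 0.19 without background correction, and *Ech1*, an isomerase of unsaturated acyl groups, by 0.20. *Acot8*, a peroxisomal thioesterase, had the lowest value, at -0.03, with other probes at 0.04 and 0.16.

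The remaining lists gave no unadjusted P under 0.05 in the unpaired fit. Of 11 genes of pyruvate dehydrogenase, its kinases and phosphatases, 7 were tested, with a median of -0.02. *Pdk1*, another kinase of the same family as *Pdk4*, had the highest value at 0.34 (limma adjusted P = 0.963), and its unadjusted limma P was 0.00332 when blocked on the replicate number (adjusted 0.149). *Dlat*, the acetyltransferase core of the complex, had the lowest at -0.19, with 0.10 on slide 1 and -0.47 on slide 2. Of 4 genes of ketone body metabolism 3 were tested (median -0.08), with *Oxct1* at 0.08 and *Bdh1* at -0.27, the latter 0.05 on slide 1 and -0.59 on slide 2. Of 14 regulators of the pathway 8 were tested (median -0.03), from *Mlycd*, which degrades the CPT1 inhibitor malonyl-CoA, at -0.22 to *Prkaa1*, a catalytic subunit of AMP-activated kinase, at 0.15.

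**Figure D4:**
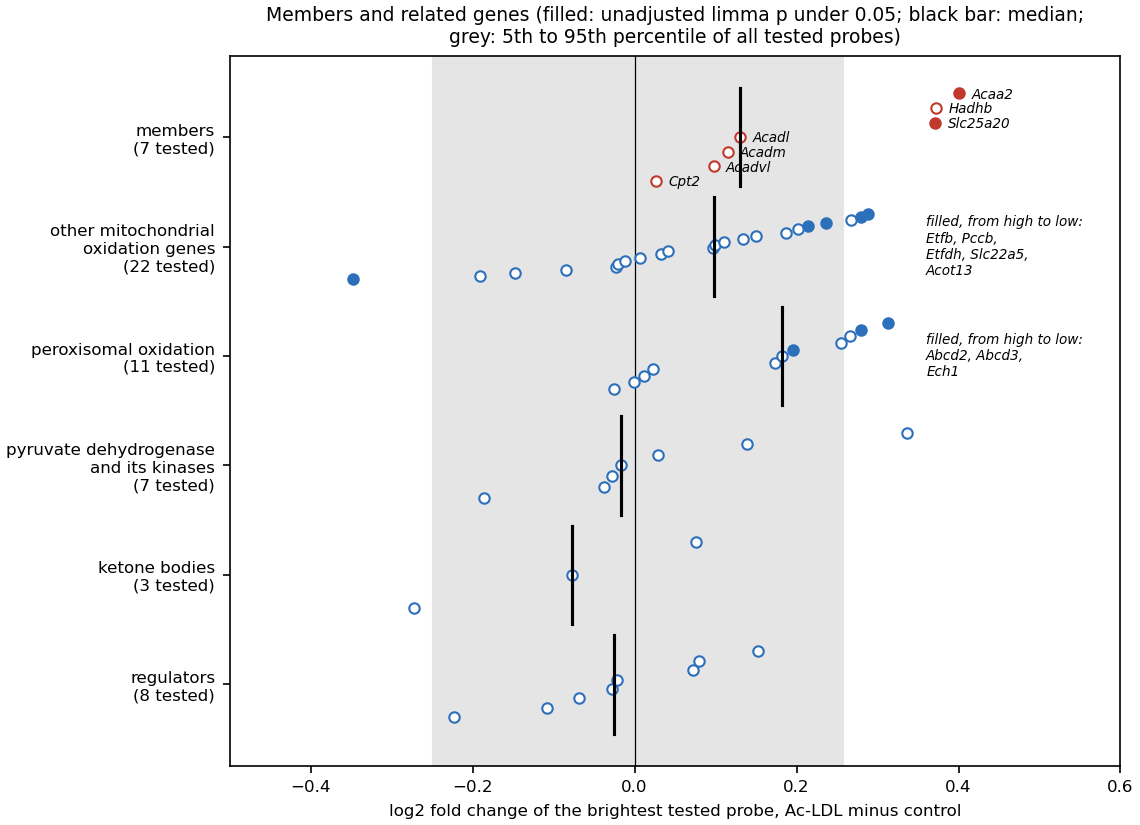
Log2 fold change of the brightest tested probe of each gene, Ac-LDL minus control, for the 7 tested members (red) and the genes of 5 related lists (blue); filled points have an unadjusted limma P under 0.05, black bars are medians and the grey band holds the 5th to 95th percentile of all tested probes. The member median lies at 0.13, that of the peroxisomal list at 0.18, and those of the lower 3 lists between -0.08 and -0.02.

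The promoters were read for known response elements, as a description only. RefSeq promoter windows (GRCm38.p6, 250 bases before to 50 after the start) were given for 9 members, among them *Hadha*, and letters were matched on both strands. The windows of *Hadha* and *Hadhb* share 228 of their 300 bases, so the 9 are not separate stretches. The PPAR-type direct repeat (AGGTCA, 1 base, AGGTCA), its looser form with AGGNCA on both sides, the ERR-type TCAAGGTCA and the NRF1-type palindrome were in 0 of the 9 windows, and were in 0.0396%, 0.381%, 0.423% and 0.971% of all 32851 windows. The looser repeat includes the stricter. With shares this low, 0 of 9 windows cannot set these genes apart from others, and sequence outside the windows was not searched. CCAAT was in 2 of the 9, those of *Pdk4* and *Cpt1a*, and in 37.4% of all windows.

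The identity of the cells was read from marker genes on the same arrays. 7 of 8 macrophage markers were tested, and the log2 of their summed level was 15.36 to 15.53 in control and 15.43 to 15.56 in Ac-LDL arrays, a sum that the bright *Lyz2* dominates. Among them *Mertk* differed by 0.56 (limma adjusted P = 0.817, and 0.0364 when blocked on the replicate number), and its other probe gave 0.20. *Itgam* differed by 0.35, *Adgre1* by 0.20, *Lyz2* by 0.05, *Cd68* by 0.02, *Csf1r* by -0.02 and *Cd14* by -0.48 (blocked limma adjusted P = 0.0808). Other probes gave 0.10 to 0.43 for *Adgre1*, -0.07 to -0.01 for *Lyz2* and 0.14 for *Csf1r*. *Msr1* was not tested. Markers of fibroblasts and mesothelium were also present, with 7 of 8 tested and a summed level of 13.55 to 14.03 and of 13.70 to 13.89, where *Col1a2* was lower without overlap (-0.23, limma adjusted P = 0.887) and the other 6 differed by -0.21 (*Col3a1*) to 0.34 (*Lum*), with overlap. *S100a8*, the 1 tested of 8 granulocyte and mast cell markers, was 9.11 to 9.27 in the controls and 9.34 to 9.49 with Ac-LDL, without overlap. 1 of 5 B cell markers was tested (*Ms4a1*, 4.63 to 5.14 and 4.69 to 4.83), and 0 of 5 T cell and 0 of 5 adipocyte markers passed the detection filter. The part of these other cells in the members' values was not tested. On each array 36.8% to 38.5% of all probes were detected.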

How the data were processed

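The authors hybridized biotin-labelled cRNA from 8 macrophage cultures to Illumina Mouse WG-6 bead chips and, per the labels, read them with BeadStudio. For each probe and array they deposited the mean bead intensity, neither background-corrected nor normalized, with a detection p-value against negative controls, a bead standard error of the intensity and a bead number, which has no unit of its own. Their own normalized values, made in GeneSpring GX, were not used. The genome build of the deposited probe positions is not given in the sources used here.

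Intensities were processed here with R 4.3.3 and limma 3.58.1: normexp with negative controls inferred from detection P values (neqc, offset 16), quantile normalization and log2. The offset shrinks fold changes of dim probes. Probes detected (P at most 0.05) on at least 4 of 8 arrays were tested, 4 Ac-LDL against 4 control arrays, unpaired as in the study, with limma and Benjamini-Hochberg adjustment over all 17122 tested probes at 0.05. Tests of single values were exact two-sided permutation tests over all assignments, except where permuted within replicate numbers or slides. The number of arrays limits the precision, and P values measure the spread between these cultures, whose separate origin the labels give only as biological replicates. The script was tested on simulated data.

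A gene was given by its tested probe with the highest mean. All members were named, and from each related list the genes with an unadjusted P under 0.05 and the largest value of either sign. Members and lists were chosen with earlier results of these data known. Whether replicate numbers pair the arrays was checked first. Over probes, deviations of same-numbered arrays from their group means correlated at 0.468 to 0.629, those of other numbers on the same slide at 0.188 to 0.447, and those across slides at -0.318 at most, so an alternative fit blocked on the number. Further alternatives changed the slide term, normalization, offset, detection filter, prior, weights, test, the probe standing for a gene and the arrays included.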

Additional observations from a re-analysis of the deposited data

Results flagged for a closer look

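In 3 of 72 groups of 4 arrays, 1 array lay farther from the others than Dixon's 95% limit allows, where chance gives about 1 in 20 groups, or 3.6. *Slc25a20* probe ILMN_3061070 read 6.46 on Ac-LDL array 3 and 6.12 to 6.16 on the other Ac-LDL arrays. *Etfb* read 11.64 on Ac-LDL array 2 and 11.47 to 11.50 on the others. *Oxct1* read 11.14 on control array 4 and 11.32 to 11.34 on the other controls.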

How the results depend on the processing

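0 member probes were called under any of the 20 alternatives with a test, and the number with an unadjusted P under 0.05 stayed between 6 and 10. The share of all probes with such a P was not counted under the alternatives. The brightest *Acaa2* probe kept its direction throughout (0.32 to 0.48, adjusted P 0.153 to 1.00), and the median of the member genes lay between 0.0958 and 0.25.

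The number of probes called among all tested, 7 in the report, was 76 with the replicate block, 55 with the slide block, 14 with median scaling, 16 with a trended robust prior, 16 with array weights, and 0 without the detection filter and by the methods' t-test after Benjamini-Hochberg adjustment. Leaving out 1 array gave 0 to 15 (15 without control array 2, 1 without Ac-LDL array 4, and 0 without control array 4 or Ac-LDL array 1, 2 or 3). The replicate block, in which same-numbered arrays are paired, changed no call of a member or of a related list. The mean of the *Acaa2* probes stayed at 0.43 in it, with an exact permutation P of 0.125, and with the slide block of 0.0556, each the smallest those permutations allow, and it was 0.38 to 0.48 with 1 array left out. The background-level *Cpt1a* probe, whose group means differed by 0.07, gave 0.18 with median scaling, and *Pdk4* gave 0.14 with an offset of 50. Members whose groups do not overlap numbered 5 within slide 1 and 4 within slide 2, where 2 arrays of each group make this easier. The share of all genes was not counted within slides, so these numbers have no background beside them. The genes of the related lists with an unadjusted P under 0.05, 8 in all, numbered 12 with the replicate block, 11 with the slide block and 4 to 9 with 1 array left out (4 without control array 1 or Ac-LDL array 3, 5 without control array 3). The share of all genes with such a P was not counted in these fits, so the numbers may follow the background. Values near 0 changed sign: *Acot8* gave 0.0200 with array weights and -0.0808 to 0.0238 with 1 array left out, and under the latter *Cpt2* probe ILMN_2775122 gave -0.00528 to 0.0876 and ILMN_2775123 -0.13 to 0.0174. Of 634 values of single probes under the alternatives, 619 kept their direction and side of the threshold and, where untested, their size within the spread of replicates. The causes of these shifts were not tested. Dim probes limit what can be said of *Cpt1a* and *Pdk4*.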
